A study of Homo sapiens with 3 samples.

Results

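The cells described here were a small non-pigment population of induced melanocyte cultures at day 32 (D32), in which collagen, simple keratin and PITX1 transcripts were found together. They were chosen by 3 sums of UMIs (unique molecules counted by the droplet assay) per 10000 UMIs of a cell. The pigment sum M was PMEL, MLANA, DCT and TYRP1, the matrix sum S was COL5A1, COL6A3, LUM, PRRX1, THBS1 and TGFBI, and the neural sum N was NEFM, MSX2, ZIC1, ZIC2 and CRABP1. Members had M under 5, S of at least 5 and S above N. Of 6023 kept D32 cells, 238 were members, a share of 3.95% (exact binomial 95% interval 3.47 to 4.47), and the kept cells of the whole series numbered 15629. Since M, S and N chose the members, the levels of these 15 genes are a description and support nothing.

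The study differentiated human pluripotent stem cells through embryoid bodies into melanocytes and profiled 1 droplet library each at D23, D32 and D44, with no treatment or genotype contrast. 1 induction, sequenced as 1 batch, gave D32 and D44, while D23 had its own induction and run, so day, induction and batch cannot be told apart between D23 and D32. The labels name induced pluripotent stem cells in the titles and the embryonic stem cell line H9 in the cell line field, and which of these gave the libraries was not settled. All libraries share a differentiation medium with L-Wnt3a conditioned medium, SCF, Endothelin-3, bFGF, cholera toxin and Dexamethasone, with TPA until the cells were passaged, and all cells were frozen before the libraries were made.

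Of the other kept D32 cells, 5639 were M-positive (M of at least 5), 111 were N-positive (M under 5, with N at least 5 and not below S) and 35 were unassigned, with M, S and N all under 5. The D23 library held 53298735 UMIs, the D32 library 268339312 and the D44 library 280879346. The D32 members held 8564838 UMIs, with a median of 34470.5 per cell against 36765 in M-positive and 23401 in N-positive cells. Mitochondrial UMIs had a median of 2.88% in members and 5.03% in the other kept cells. Scrublet called 2 of the members doublets (0.840%) and 430 of the other kept D32 cells (7.43%), and doublets were kept. A further 37 D32 cells had S of at least 5 and above N but M of at least 10, and 30 of these were called doublets. Between libraries, 28 barcodes were shared by D32 and D44, 16 by D23 and D32 and 9 by D23 and D44, out of 5585 to 8927 barcodes per library.

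With 1 library per day and cells that are not replicates, no difference below was tested. Levels are CPM, the UMIs of a gene per 1000000 UMIs of its group, with exact Poisson 95% intervals, and ratios carry exact conditional 95% intervals. Both cover counting error only. Genes of at least 10 CPM in either group were compared, and those that differed at least 2-fold were counted. A gene could pass this limit through 1 group alone, which favours that group in counts over short lists.

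Mesenchyme is loose connective tissue that secretes collagens and proteoglycans, and in the limb bud and body wall its position is marked by homeobox factors. PITX1 is the factor known for specifying the hindlimb, and posterior HOX genes mark the trunk end of the axis and the outer limb. KRT8 and KRT18 pair as the intermediate filament of simple epithelia. Mesothelium and some embryonic mesenchyme also make them. KRT19 is a further simple keratin.

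The 5 marker genes given for these cells were all present, 1 of which (LUM, a collagen-binding proteoglycan) was part of S. KRT18 was at 2761 CPM (2726 to 2796) in members and 77.5 CPM (76.4 to 78.7) in the other kept D32 cells. KRT8 was at 1844 CPM (1815 to 1873) against 37.5 CPM (36.7 to 38.3). COL3A1, a fibrillar collagen of soft tissue, was at 686 CPM (668 to 703) against 13.1 CPM (12.6 to 13.6). PITX1 was at 361 CPM (349 to 374) against 5.70 CPM (5.40 to 6.02), a ratio of 63.4 (59.4 to 67.6). The keratin level was not shared by every class without pigment, as the N-positive cells held 104 CPM (92.1 to 116) of KRT18 and 1.75 CPM (0.568 to 4.08) of PITX1. It was not particular to members either. A list of 13 epithelial genes, with KRT8, KRT18 and KRT19 among them, summed to 6869 CPM in the unassigned cells and 5010 CPM in members.

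KRT8 and KRT18 were found in nearly all members, PITX1 in most and KRT19 in fewer. By deposited counts, 97.5% of members had a KRT8 UMI, 97.9% a KRT18 UMI, 86.6% a PITX1 UMI and 61.8% a KRT19 UMI. After each cell was thinned to 5000 UMIs, the shares were 89.5% (84.9 to 93.1), 92.0% (87.8 to 95.1), 64.7% (58.3 to 70.8) and 37.8% (31.6 to 44.3). The M-positive cells, a type that should lack PITX1 and KRT19, had thinned shares of 0.798% and 0.674%, and 13.3% for KRT18. Keratin and collagen were in the same cells: at 5000 UMIs a cell, 196 of 238 members (82.4%, 76.9 to 87.0) had both KRT8 and COL3A1, against 44 of 5639 M-positive cells (0.780%). The pair was held by 96.2% of members and 2.27% of M-positive cells before thinning.

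**Figure D1:**
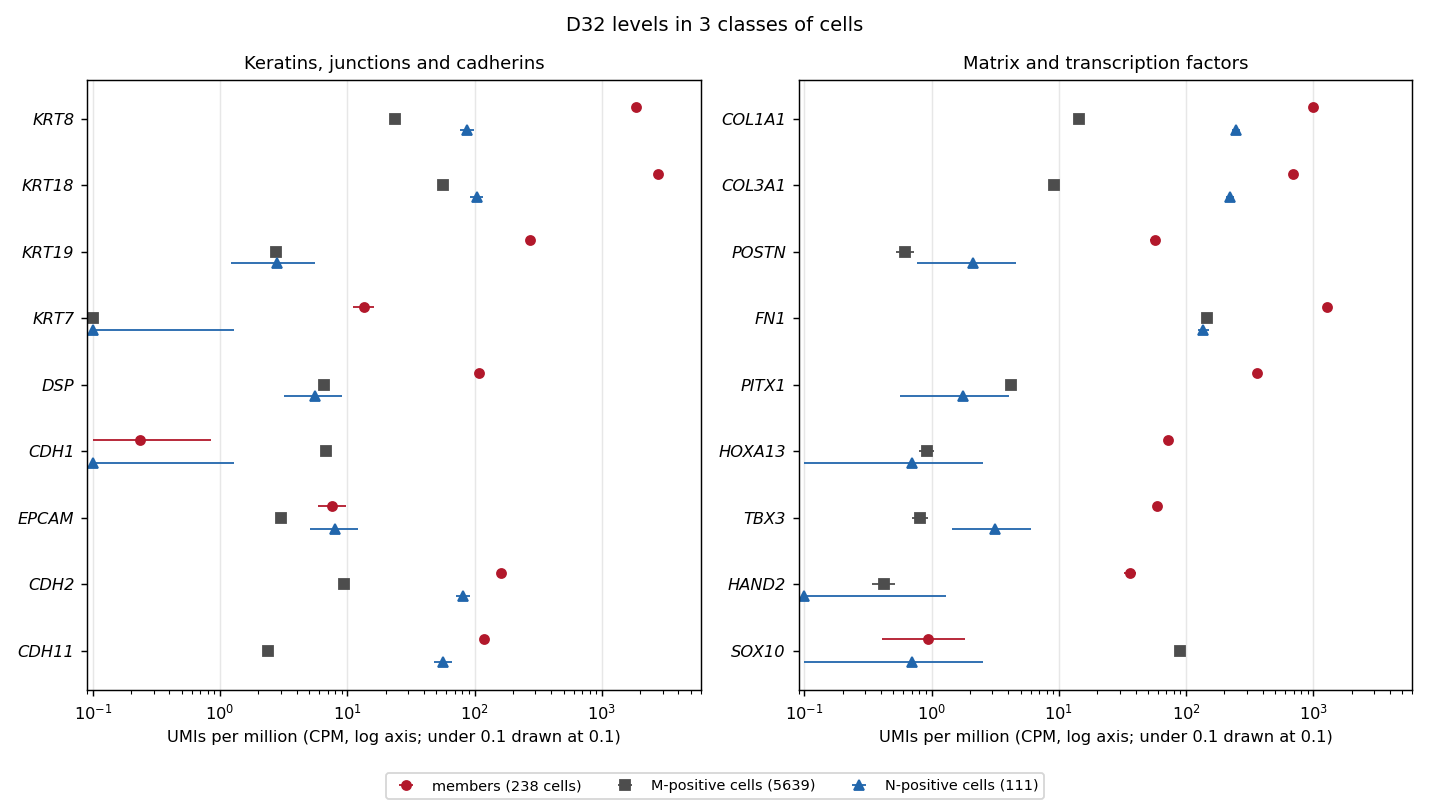
CPM on a log axis for keratin, junction and cadherin genes (left) and matrix genes and transcription factors (right) in 3 classes of D32 cells. Points are levels and bars exact Poisson 95% intervals. Members stand above both other classes for KRT8, KRT18, KRT19 and PITX1, while CDH1 and SOX10 are highest in the M-positive cells.

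The epithelial list was held only in part, by its filament and desmosome genes. Of 6 tested genes of that list, 5 were at least 2-fold higher in members (KRT8, KRT18, KRT19, KRT7 and DSP) and 1 was lower. The background was 10.4% of 8843 genes at least 2-fold higher and 10.4% lower. KRT19 was at 272 CPM (261 to 284) against 4.10 CPM (3.84 to 4.37). DSP, the plaque protein of desmosomes, was at 109 CPM (102 to 116) against 6.79 CPM (6.46 to 7.14). CDH1, the epithelial cadherin, had 0.234 CPM (0.0283 to 0.844) in members and 6.66 CPM in the other cells, and ESRP1, an epithelial splicing factor, 0.117 CPM against 24.4 CPM. GRHL2, a regulator of epithelial identity, had no UMI in members, and CLDN4, CLDN7 and ELF3 were each under 1 CPM. KRT7 rested on few cells: 233 of 238 members had none, and 1 cell held 73.9% of its UMIs. KRT8 and KRT18 have many near-identical pseudogene copies, and the annotated spans of both overlap on opposite strands, so their exact levels are less certain than those of other genes.

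The mesenchymal cadherins were present instead of CDH1. CDH2 (N-cadherin) was at 162 CPM (153 to 170) against 11.1 CPM, and CDH11, a cadherin of mesenchyme and bone-forming cells, at 118 CPM (111 to 126) against 3.46 CPM. VIM, the mesenchymal filament, did not separate the cells, at 5252 CPM against 5222 CPM. Of the mesothelial list, BNC1, PDPN, KRT19 and TCF21 were all at least 2-fold higher among 4 tested, from 24.1-fold to 76.5-fold. All 10 listed genes summed to 8.15 CPM in the other cells. The 4 tested genes thus passed the 10 CPM limit through the members, which set their direction. The defining genes of mesothelium were near 0: WT1 had no UMI, and MSLN, UPK3B and CALB2 were each under 0.4 CPM. KRT5, KRT14 and TP63 of squamous epithelium, CDH5 and VWF of endothelium, MYOD1 and MYOG of skeletal muscle, and CGA and CDX2 of trophoblast had no UMI in members.

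Extracellular matrix genes were mostly higher in members. Without the genes of the rule, 16 of 18 tested collagens were at least 2-fold higher in members and 1 (COL2A1, of cartilage) was lower, with a median log2 ratio of 3.17 against -0.04 over all tested genes. COL1A1, the main fibrillar collagen, was at 991 CPM (970 to 1012) against 18.6 CPM. COL1A2, which partners it, was at 848 CPM against 134 CPM. Of 22 matrix glycoproteins and proteoglycans, 17 were higher and 1 (PRELP) lower. FN1 (fibronectin) was at 1287 CPM (1263 to 1312) against 148 CPM, NID2, a basement membrane linker, at 248 CPM (237 to 259) against 4.09 CPM, and POSTN (periostin) at 57.2 CPM (52.3 to 62.5) against 0.821 CPM. Of 13 genes for collagen folding and crosslinking, 9 were higher and 1 lower.

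Contractile genes and targets of the mechanical coactivator YAP were higher in 16 of 22, and none was 2-fold lower. TAGLN, an actin-binding protein of smooth muscle and activated fibroblasts, was at 869 CPM (850 to 889) against 22.3 CPM. MYL9, a myosin light chain, was at 556 CPM against 19.1 CPM, and CCN1, a YAP target, at 266 CPM against 15.5 CPM. ACTA2, the smooth muscle actin, was at 30.2 CPM (26.7 to 34.2). Troponin genes of slow and cardiac muscle were also held: TNNT2 at 172 CPM (163 to 181), TNNI1 at 112 CPM (105 to 120) and TNNC1 at 54.8 CPM, against 3.27, 1.50 and 2.58 CPM.

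Patterning factors of limb and posterior mesenchyme were mostly higher in members as well. Without PRRX1, 8 of 10 tested genes of the limb and mesenchyme list were higher in members (among them PITX1, TBX3, HAND2, TWIST1 and MEIS2) and TBX2, also a melanocyte factor, was lower. Of the 31 listed genes, 10 were under 1 CPM in members, and TBX5, HAND1, SHOX, LMX1B and EN1 had no UMI. TBX3, a T-box factor of limb margins, was at 59.4 CPM (54.4 to 64.8) against 1.02 CPM, and HAND2, a factor of posterior limb and lateral mesoderm, at 36.3 CPM (32.4 to 40.6) against 0.550 CPM. TBX5, of the forelimb, had a UMI in 0 of 238 members, which allows a share of cells with a UMI of up to 1.26%, and TBX4, of the hindlimb, was at 5.25 CPM (3.83 to 7.03) against 0.219 CPM, under the 10 CPM limit.

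Of 16 listed posterior HOX genes 6 were tested, of which 5 were higher (HOXA9, HOXA10, HOXA11, HOXA13 and HOXB9) and HOXC9 was lower. The higher genes passed the 10 CPM limit through the members, so their direction was largely set by it. All 16 summed to 20.3 CPM in the other cells. HOXA10 was at 134 CPM (126 to 142) against 2.71 CPM, and HOXA13, the last gene of its cluster, at 72.0 CPM (66.5 to 78.0) against 1.19 CPM. HOXA11 had 24.2 CPM (21.0 to 27.7) and HOXA9 25.7 CPM (22.4 to 29.3). HOXD13 and HOXC11 had no UMI, HOXC10 was at 1.28 CPM and HOXD10 at 5.60 CPM. In GENCODE v44 (hg38) HOXA13 lies at chr7:27193503-27200091 and HOXA10 at chr7:27170605-27180261, whose span overlaps that of HOXA9 on the same strand.

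PITX1 lies at chr5:135027734-135034813 on the minus strand, and the antisense-named RNA C5orf66-AS1 at chr5:135038831-135040047 on the same strand. C5orf66-AS1 was at 51.3 CPM (46.6 to 56.3) in members and 1.00 CPM in the other cells. Its levels over the 238 members followed those of PITX1 more closely than any other of 2945 genes ranked (Spearman correlation 0.71, a description over cells of 1 library).

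For 2 genes among the 25 with the highest ratios, the 250 bases before the RefSeq start (GRCh38.p14) are shown, as DKK1 and HOXA13 stood for the secreted and the homeobox genes and their starts coincide with the GENCODE gene starts. Of the 25, 14 had an entry. Capitals mark GGGCGG, the GC box, on either strand, which 42.6% of 35116 windows of the same length held and 9 of the 14 held. DKK1 (chr10:52314031-52314280, plus strand) held it 1 time, and HOXA13 (chr7:27200092-27200341, minus strand) 4 times. TGANTCA, the AP-1 motif, was in neither, in 3 of the 14 and in 6.57% of all windows. These matches are descriptions of sequence only.
DKK1: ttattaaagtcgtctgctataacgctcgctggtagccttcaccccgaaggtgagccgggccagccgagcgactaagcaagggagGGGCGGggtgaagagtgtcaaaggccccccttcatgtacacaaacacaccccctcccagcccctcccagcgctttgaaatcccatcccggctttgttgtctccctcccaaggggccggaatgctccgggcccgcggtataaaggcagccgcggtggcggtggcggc
HOXA13: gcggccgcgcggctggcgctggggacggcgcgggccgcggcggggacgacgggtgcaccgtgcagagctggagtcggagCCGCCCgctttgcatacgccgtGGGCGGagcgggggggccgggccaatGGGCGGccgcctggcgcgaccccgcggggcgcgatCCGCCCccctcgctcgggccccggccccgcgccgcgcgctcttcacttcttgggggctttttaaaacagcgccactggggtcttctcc

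Secreted signals and their inhibitors were mostly higher in members. Of 15 tested WNT pathway genes, 14 were at least 2-fold higher in members, with a median log2 ratio of 4.42. All 31 listed genes summed to 977 CPM in members and 106 CPM in the other cells. Several tested genes, DKK1 and WNT5A among them, passed the 10 CPM limit only through the members, which set their direction. DKK1, a secreted WNT antagonist, was at 264 CPM (254 to 276) against 3.60 CPM, a ratio of 73.4 (67.8 to 79.5), and 1 cell held 14.3% of its UMIs. WNT5A, a ligand of noncanonical signalling in limb mesenchyme, was at 160 CPM (152 to 169) against 2.97 CPM. Of 24 TGF-beta and BMP genes, 16 were higher and GDF15 was lower. BMP4 was at 436 CPM (422 to 450) against 9.97 CPM, while its target ID1 was at 332 CPM (320 to 345) against 32.0 CPM and reached 1293 CPM in the N-positive cells. Of 8 cytokine genes, 6 were higher and CXCL12 was lower. CXCL14, a chemokine of skin and limb mesenchyme, was at 345 CPM (333 to 358) against 5.13 CPM.

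Some ligand and receptor genes of mesenchyme and pigment cells were also measured. KITLG, the ligand of the melanocyte receptor KIT, was at 17.3 CPM (14.6 to 20.3) in members and 2.55 CPM in the other cells. HGF, a growth factor for the receptor MET, was at 13.2 CPM (10.9 to 15.9) against 0.116 CPM. EDNRA, the endothelin receptor of mesenchyme, was at 55.5 CPM (50.6 to 60.7) against 1.41 CPM. The endothelin ligand EDN3 had no UMI in 236 of the 238 members.

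The remaining genes of the 25 highest ratios included enzymes and membrane proteins. HSD17B2, which oxidises oestradiol and testosterone, had the highest ratio among genes of at least 50 CPM in members, 77.3 (66.0 to 90.8), at 70.1 CPM (64.6 to 75.9). NNMT, a nicotinamide methyltransferase, was at 219 CPM (209 to 229), TM4SF1, a surface tetraspanin-like protein, at 266 CPM (255 to 277), and the imprinted RNA H19 at 80.6 CPM (74.7 to 86.8), with 3.33, 4.32 and 1.28 CPM in the other cells. FLT1, a VEGF receptor, was at 111 CPM (104 to 118) while KDR, the main endothelial VEGF receptor, was at 1.17 CPM.

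All 10 tested melanocyte genes outside the rule were lower in members. TYR (tyrosinase) was at 1.28 CPM (0.641 to 2.30) against 237 CPM, and SOX10, the master factor of the lineage, at 0.934 CPM (0.403 to 1.84) against 87.3 CPM. Mitotic genes did not separate the members, with 0 of 15 past 2-fold in either direction and a median log2 ratio of 0.15. MKI67 was at 105 CPM (98.6 to 112) against 94.7 CPM.

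**Figure D2:**
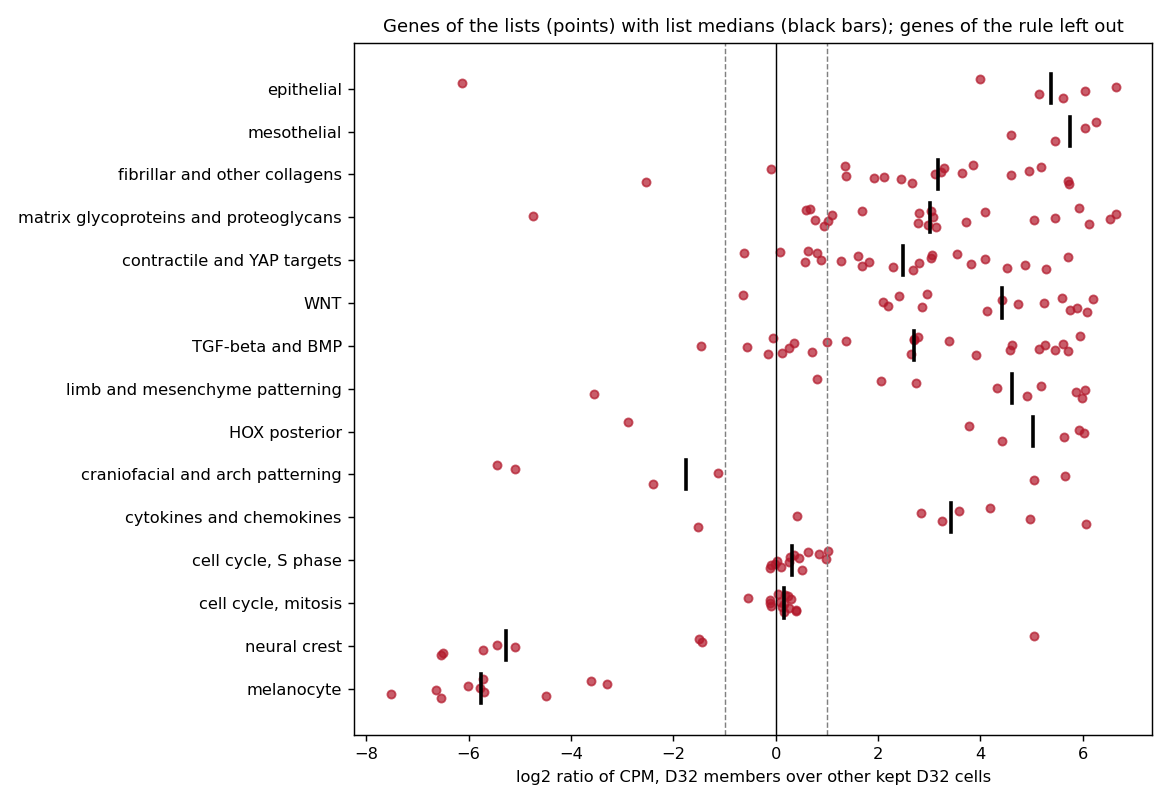
Log2 ratio of CPM between the 238 members and the other 5785 kept D32 cells for genes of 15 lists (points, 1 per tested gene, genes of the rule left out) with the list median (black bar). Dashed lines mark 2-fold. Collagen, WNT, limb and posterior HOX genes lie mostly to the right, melanocyte genes to the left, and mitotic genes near 0.

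The N-positive cells, the other non-pigment class, shared part of this profile. Against them, 7.39% of tested genes were at least 2-fold higher in members and 11.2% lower. Of tested genes, 5 of 5 epithelial and 4 of 5 posterior HOX genes were higher in members. The epithelial list summed to 5010 CPM in members and 211 CPM in N-positive cells. All 16 posterior HOX genes summed to 280 and 29.4 CPM, so the direction of their count was largely set by the 10 CPM limit. Only 8 of 20 collagens outside the rule were higher in members, and 4 were lower. COL1A2 was at 848 CPM in members and 835 CPM (802 to 869) in N-positive cells, and PDPN, a surface glycoprotein, was at 71.7 CPM and 98.4 CPM (87.2 to 111). CCL2, a chemokine, was lower in members, at 81.7 CPM against 277 CPM (258 to 297).

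Members differed among themselves in S, KRT19 and PITX1. S ran from 5.00 to 65.2 with a median of 12.7 per 10000 UMIs, and 19 members had S from 5 to 6. Just outside, 16 cells with M under 5 had S from 4 to 5. The 5 nearest inside had PITX1 from 0 to 8.55 per 10000 UMIs and the 5 nearest outside from 2.48 to 4.84, so the limit cut through cells with PITX1. As a class the 35 unassigned cells held KRT18 at 3989 CPM, above the level in members, and PITX1 at 292 CPM.

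KRT8 and KRT18 varied together over the members. KRT8 had a median of 11.6 per 10000 UMIs, quartiles of 4.54 and 22.7 and a maximum of 117, and 6 cells had none. KRT18 had a median of 16.2, quartiles of 6.95 and 30.0 and a maximum of 222, and 5 cells had none. The Spearman correlation between both was 0.95 over the 238 cells, which share 1 library and differ in depth. PITX1 had a median of 2.71 and a maximum of 14.7 with 32 cells at 0, and KRT19 a median of 0.450 and a maximum of 33.1 with 91 cells at 0. The correlation between KRT19 and PITX1 was 0.26, and that with the UMIs of a cell was 0.25 for KRT19 and 0.21 for PITX1.

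**Figure D3:**
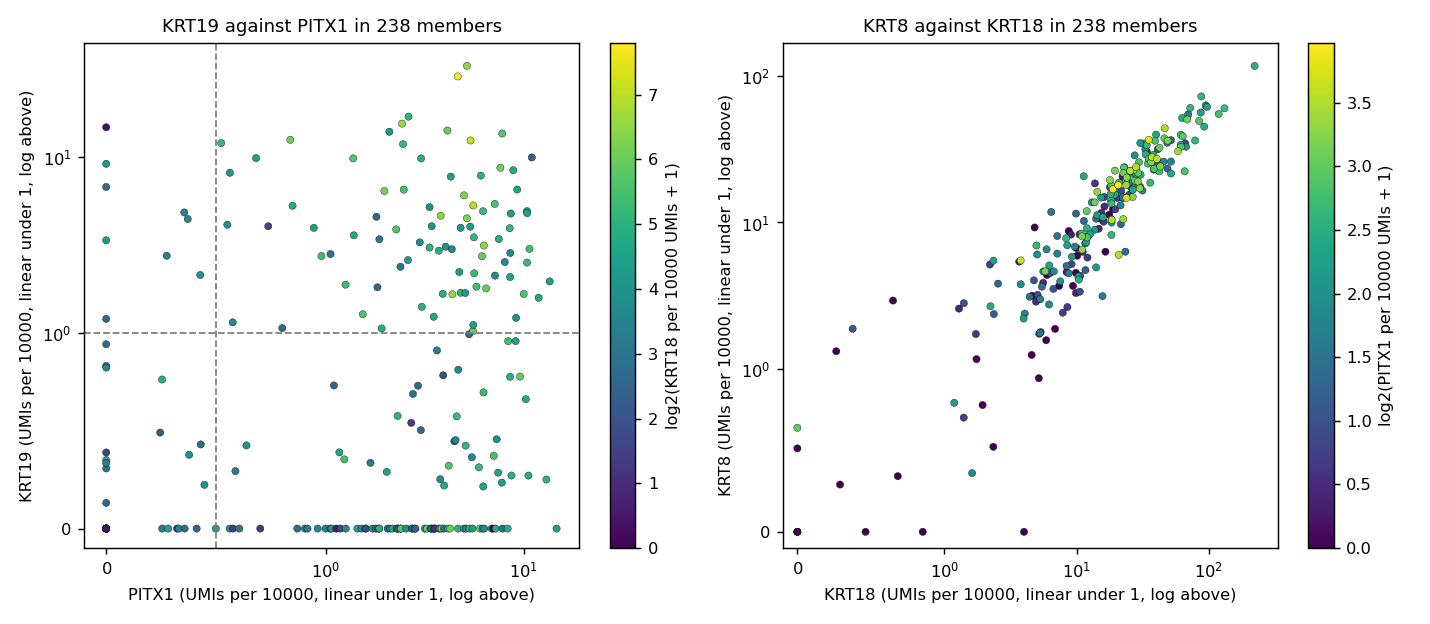
Each point is 1 of the 238 members, with UMIs per 10000 (linear under 1, log above) of KRT19 against PITX1, coloured by KRT18 (left), and of KRT8 against KRT18, coloured by PITX1 (right). Dashed lines are the limits of 1 for KRT19 and 0.5 for PITX1. KRT8 and KRT18 form 1 diagonal band with the PITX1-poor cells at its low end.

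PITX1-high members (at least 0.5 per 10000 UMIs) numbered 190 and PITX1-low members 48, with 27 cells near the limit (from 0.5 to 1.5 times it). The PITX1-low cells held less KRT8, KRT18 and KRT19 and more of a set of genes that includes the homeobox gene MSX1. In members as a whole, 7 of 8 tested neural crest genes outside the rule were at least 2-fold lower than in the other D32 cells, and 1 was higher. Of 8361 tested genes, 1.97% were at least 2-fold higher in PITX1-high members and 1.7% lower. KRT18 was at 3180 CPM (3139 to 3222) in PITX1-high and 878 CPM (832 to 926) in PITX1-low members, a ratio of 3.62 (3.43 to 3.83), and KRT8 at 2122 and 592 CPM. KRT19 was at 304 CPM (291 to 317) and 132 CPM (115 to 151). Median UMIs per cell were 35065.5 and 29531.5.

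Other genes higher with PITX1 had varied roles. STMN2, a microtubule regulator best known in neurons, was at 325 CPM (312 to 339) in PITX1-high and 28.8 CPM (21.0 to 38.6) in PITX1-low members, a ratio of 11.3 (8.41 to 15.5). The neuronal RNA-binding genes ELAVL3 and ELAVL4 were at 0.117 CPM and at 0 in members. The 10 genes of the neuron list summed to 1164 CPM in PITX1-high and 718 CPM in PITX1-low members. They summed to 573 CPM in the M-positive cells, so the presence of the list was not particular to members. Between members and the other D32 cells, 2 of 4 tested neuron genes outside the rule were at least 2-fold higher and 0 lower. IGFBP5, an IGF-binding protein, was at 715 CPM (696 to 735) and 138 CPM (120 to 157). PLAT, a plasminogen activator, was at 68.4 and 12.8 CPM, TM4SF1 at 304 and 96.7 CPM, and FOXF1, a factor of lateral and visceral mesoderm, at 29.4 CPM (25.5 to 33.7) and 2.56 CPM (0.698 to 6.56). WNT2 and HGF were both at 15.8 CPM in PITX1-high members, and each had 2 UMIs in PITX1-low members.

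Genes lower with PITX1 included DKK1, at 165 CPM (156 to 175) in PITX1-high and 708 CPM (667 to 751) in PITX1-low members, 4.28-fold (3.94 to 4.65) lower. The 1 cell that held 14.3% of the DKK1 UMIs of all members had no PITX1 UMI, and its part in this ratio was not tested. MSX1, a homeobox gene downstream of BMP in limb and face, was at 440 CPM (425 to 456) and 883 CPM (837 to 931). RARRES2, which encodes chemerin, was at 135 CPM (126 to 143) and 487 CPM (453 to 523), and ID1 at 263 and 644 CPM. HTRA1, a secreted protease, was 5.62-fold (4.14 to 7.65) lower and NR2F1, an orphan nuclear receptor, 3.36-fold (2.63 to 4.27) lower. HTRA1 had no UMI in 186 of the 238 members, and 1 cell held 18.0% of its UMIs. Of 5 tested craniofacial patterning genes outside the rule, 4 were lower (among them DLX2, MSX1 and TFAP2A) and FOXF1 was higher. DLX2 rested on few cells, as 229 of 238 members had none and 1 cell held 40.6% of its UMIs.

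Collagens and posterior HOX genes mostly differed less than 2-fold between PITX1-high and PITX1-low members, while some other matrix genes differed more. COL1A1 was at 977 CPM (954 to 1001) in PITX1-high and 1050 CPM (1000 to 1103) in PITX1-low members, and of 17 collagens outside the rule 0 were 2-fold higher and 1 was lower. Of 21 matrix glycoproteins and proteoglycans, 3 were higher (POSTN, DCN and NID2) and 2 lower (TNC and FBLN2). Among all members, 1 cell held 16.9% of the UMIs of TNC, 33.0% of FBLN2 and 18.2% of DCN. The part of single cells in these ratios was not tested. NID2 was at 280 CPM (268 to 293) and 102 CPM (87.2 to 120), and TNC, the glycoprotein tenascin C, at 38.8 CPM (34.4 to 43.7) and 80.1 CPM (66.7 to 95.4). HOXA13 was at 73.1 CPM (66.9 to 79.7) and 67.3 CPM (55.0 to 81.4), HOXA10 at 131 and 148 CPM, and TBX3 at 61.3 and 51.2 CPM. For HOXA13 the ratio was 1.09 with an interval of 0.880 to 1.35. With the PITX1 limit at the median, the ratio of NID2 was 1.83, that of TM4SF1 1.85 and that of ID1 0.594, so these 3 were then under 2-fold.

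KRT19-high members (at least 1 per 10000 UMIs) numbered 95 and KRT19-low members 143, with 31 near the limit. KRT19-high cells held more KRT8 and KRT18 and less of the mitotic genes, while KRT17, a keratin of stratified epithelium, was lower, at 3.43 CPM (1.83 to 5.87) against 12.6 CPM (9.58 to 16.2). Of 8253 tested genes, 0.824% were at least 2-fold higher and 0.848% lower. KRT18 was at 4004 CPM (3941 to 4068) in KRT19-high and 1775 CPM (1738 to 1813) in KRT19-low members, and KRT8 at 2634 and 1217 CPM. PKP2 and DSC3, a plaque protein and a cadherin of desmosomes, were at 35.4 and 28.3 CPM in KRT19-high and 9.63 and 10.3 CPM in KRT19-low members. PCP4, a calmodulin regulator, was at 216 and 83.7 CPM, and KCNMA1, a calcium-activated potassium channel, at 153 and 66.6 CPM. With the KRT19 limit at a UMI after thinning, the ratio of KRT8 was 1.91, that of PCP4 1.82 and that of KCNMA1 1.76, under 2-fold.

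All 15 mitotic genes were lower in KRT19-high members, 3 of them (TOP2A, PLK1 and NUSAP1) by at least 2-fold, with a median log2 ratio of -0.83. TOP2A, a topoisomerase of dividing cells, was at 81.6 CPM (72.8 to 91.2) in KRT19-high and 169 CPM (157 to 181) in KRT19-low members. UBE2C, an enzyme of mitotic exit, was at 166 CPM (153 to 179) and 370 CPM (353 to 387). With the limit at the median, TOP2A had a ratio of 0.552, NUSAP1 of 0.537 and PLK1 of 0.632, all short of 2-fold, and by the mean of per-cell CPM UBE2C had 0.533. Of 14 S-phase genes 13 were lower, none by 2-fold, with a median log2 ratio of -0.33. Median UMIs per cell were 36673 in KRT19-high and 32024 in KRT19-low members, and the part of depth in these differences was not tested. COL3A1 was at 697 and 676 CPM and HOXA13 at 73.4 and 70.9 CPM, each with an interval of the ratio that includes 1.

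KRT19 and PITX1 were high partly in the same cells. KRT19-high cells made up 45.3% (38.0 to 52.6) of PITX1-high and 18.8% (8.95 to 32.6) of PITX1-low members, with 86 cells high for both, 104 for PITX1 alone, 9 for KRT19 alone and 39 for neither. Among PITX1-high members, 0.923% of tested genes were at least 2-fold higher with KRT19 and 1.04% lower, and all 15 mitotic genes were again lower, 4 of them by 2-fold, with a median log2 ratio of -0.97. KRT18 was at 4291 CPM in cells high for both, 2103 CPM with PITX1 alone, 1075 CPM with KRT19 alone and 824 CPM with neither. DKK1, in the same order, was at 189, 142, 524 and 759 CPM. It was thus lower in both PITX1-high groups, and within these slightly higher with KRT19. The group with KRT19 alone holds 9 cells, and the cell with the most DKK1 UMIs was in the group with neither.

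**Figure D4:**
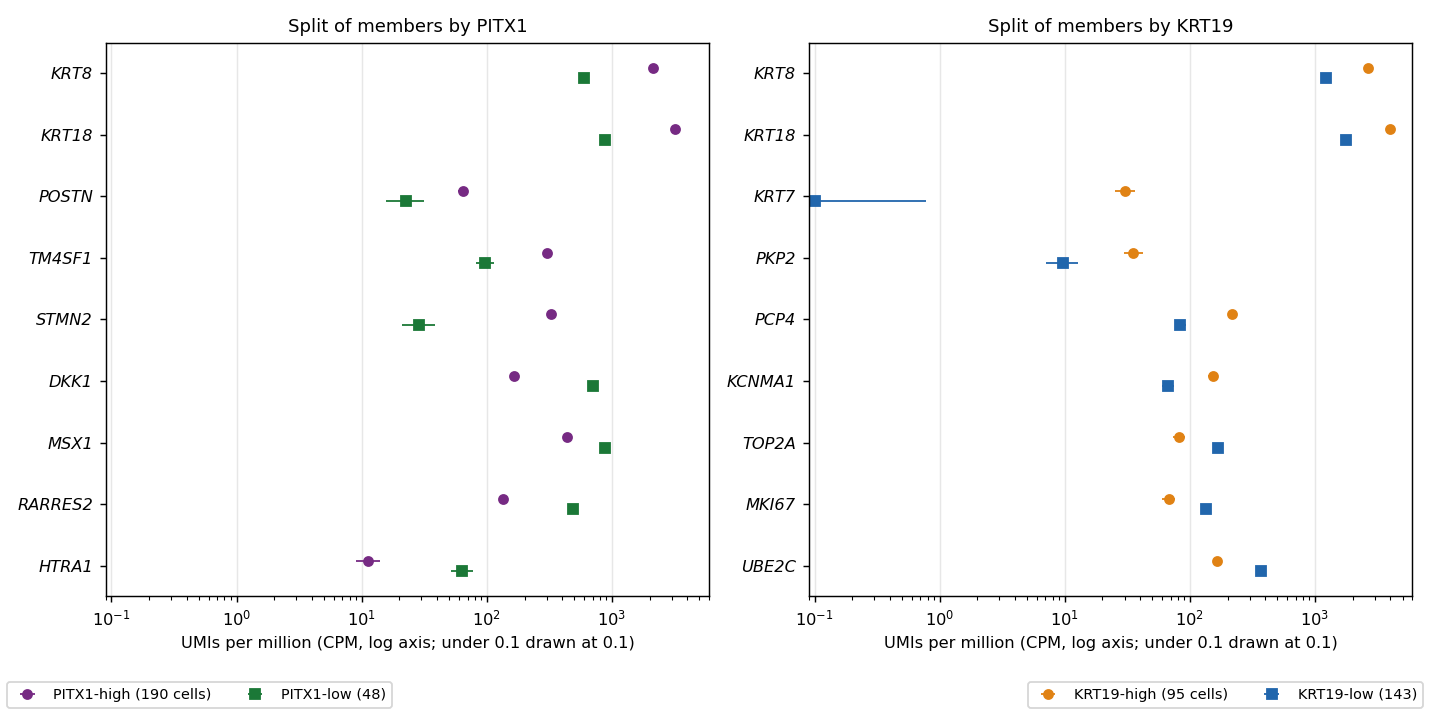
CPM on a log axis in PITX1-high and PITX1-low members (left) and in KRT19-high and KRT19-low members (right), with exact Poisson 95% intervals. KRT8 and KRT18 are higher in both high groups, DKK1, MSX1, RARRES2 and HTRA1 in PITX1-low, and TOP2A, MKI67 and UBE2C in KRT19-low members.

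Over the 238 members, the genes most like KRT19 were S100A10 (Spearman correlation 0.55), KRT8 (0.45) and KRT18 (0.42), and those most like PITX1 were C5orf66-AS1, KRT8 (0.55) and KRT18 (0.52). The most opposite to PITX1 were RARRES2 (-0.50) and MSX1 (-0.49). These points share 1 library and differ in depth.

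Cells passing the same rule were 329 of 3795 kept D23 cells (8.67%, 7.79 to 9.61) and 19 of 5811 kept D44 cells (0.327%, 0.197 to 0.510). D23 cells were shallower, with a median of 12042 UMIs against 35541 in D44, and had been filtered with their own limits. No PITX1 UMI was found in the D23 cells, 0 of 329, which allows a share of cells with a UMI of up to 0.912% at this depth and sets no limit on cells that express it, while 8 of the 19 D44 cells had one. The D44 level of PITX1 was 195 CPM (162 to 233).

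Against the D23 cells, the D32 members held more keratin and posterior HOX transcript and less fibrillar collagen. Of 8899 tested genes, 10.6% were at least 2-fold higher in D32 and 12.5% lower. KRT18 was at 2761 CPM in D32 and 58.6 CPM (51.4 to 66.5) in D23, and KRT8 at 1844 and 78.2 CPM (69.9 to 87.2). All 5 tested posterior HOX genes were higher, HOXA10 being at 1.69 CPM (0.681 to 3.49) and HOXA11 and HOXA13 with no UMI in D23. The 16 listed posterior HOX genes summed to 280 CPM in D32 and 21.5 CPM in D23, so the direction of this count was largely set by the 10 CPM limit. Against the limit of 3 UMIs, PITX1 was at least 498-fold and HOXA13 at least 99.2-fold higher in D32. COL1A1 was at 3898 CPM (3838 to 3959) in D23, 3.93-fold (3.83 to 4.04) above D32, and 12 of 18 collagens outside the rule were lower in D32. COL3A1 went the other way, at 338 CPM in D23 and 686 CPM in D32. Of 9 craniofacial genes outside the rule, 7 were lower in D32 and 1 higher, TFAP2A being at 86.4 CPM (77.7 to 95.9) in D23 and 6.19 CPM (4.64 to 8.09) in D32. NR2F1 was at 1296 CPM (1262 to 1332) in D23 and 33.3 CPM in D32.

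Against the 19 D44 cells, which share induction and batch with D32, the mitotic genes were all higher in the D32 members. Of 8805 tested genes, 11.2% were at least 2-fold higher in D32 and 9.78% lower. All 15 mitotic genes were at least 2-fold higher in D32, with a median log2 ratio of 2.48, and 13 of 14 S-phase genes. MKI67 was at 14.1 CPM (6.43 to 26.7) in D44. KRT18 was at 550 CPM (494 to 610) and KRT19 at 70.3 CPM (51.2 to 94.0) in D44, and 4 of 5 posterior HOX genes were higher in D32. TNNT2 and TNNI1 had no UMI in D44, and were at least 36.6-fold and 24.0-fold higher in D32 against the limit of 3 UMIs. Of 17 matrix proteases and inhibitors, 11 were lower in D32 and 2 higher. PLAT was at 198 CPM (165 to 236) in D44 and 58.3 CPM in D32. With 19 cells, a few cells can set a level.

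**Figure D5:**
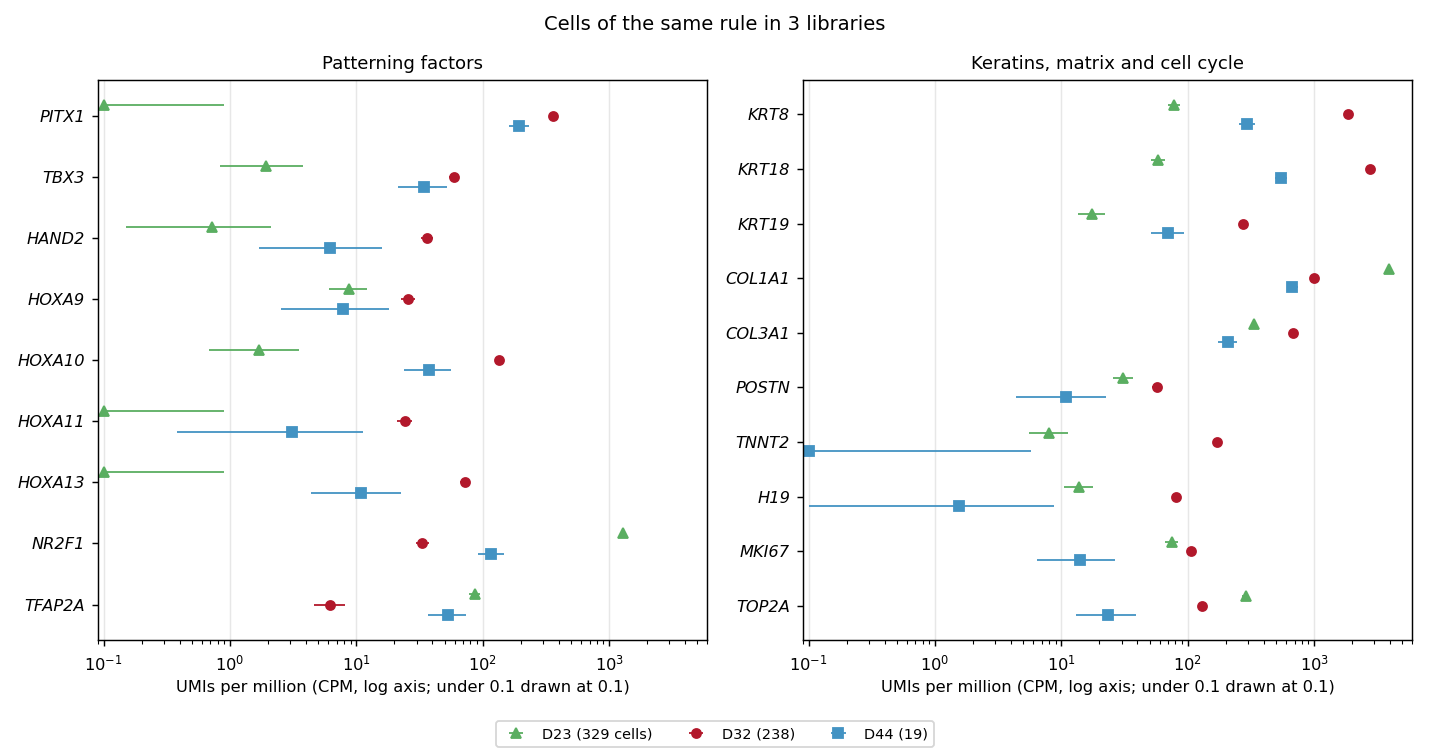
CPM on a log axis in the cells of the same rule in D23 (329 cells), D32 (238) and D44 (19), with exact Poisson 95% intervals, for patterning factors (left) and keratin, matrix and cell cycle genes (right). PITX1, HOXA11 and HOXA13 have no UMI in D23, COL1A1 is highest in D23, and MKI67 and TOP2A are lowest in D44.

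Most of the genes that marked the members were also higher in the same-rule cells of the other libraries, where they reached 10 CPM there. Of the 25 genes with the highest ratios at D32, 17 were tested in D23. In its same-rule cells 16 were at least 2-fold higher than in its other cells, where the background was 5.9% higher and 6.79% lower. Under the limit in both D23 groups were HSD17B2, DKK1, PITX1, HOXA13, TBX3, FLT1, TNNT2 and C5orf66-AS1, so the D23 cells shared only part of the set. In D44, 20 of the 25 were tested and all 20 were higher, against 12.0% higher and 12.7% lower among all tested genes. TNNI1, CXCL14, H19, TNNT2 and C5orf66-AS1 were under the limit there. The 15 lowest genes were all lower in D23 and 14 of them in D44, with TINCR the exception. The same sums chose the cells in each library, so these counts are a description. Genes picked for extreme ratios at D32 could also reach 10 CPM only through the group in which they were high at D32. The limit thus favoured the D32 direction in these counts, and how many genes passed it this way was not counted. The backgrounds cover all tested genes, which were not picked in this way, so the counts cannot be judged against them.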

How the data were processed

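Droplet RNA libraries of D23, D32 and D44 (1 each) were analysed. The authors deposited filtered gene-by-barcode matrices of UMI counts (Cell Ranger 6.1.2 and hg38, per the submitters' processing notes) with no further normalization. The counting strand is not given in the sources used here. Cells were kept with under 10% mitochondrial UMIs, and with 3000 to 9000 genes and under 100000 UMIs (D23: 1000 to 7000 genes and under 50000 UMIs), after the study's methods. Counts were summed per group with Python 3.11.15, numpy 2.4.6, pandas 2.3.3 and SciPy 1.17.1. Scrublet (Scanpy 1.11.5, 30 components, expected share 0.8% per 1000 barcodes) called doublets, which were kept. Cells were thinned to 5000 UMIs for shares. Where a group had no UMI, the ratio was taken against 3 UMIs.

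Named genes were the lists' members, the 25 highest and 15 lowest ratios against the other D32 cells, the 12 highest and 12 lowest per split, and the 10 highest and 10 lowest against each library, at 50 CPM or more, without the genes of the rule, the splitting gene, mitochondrial genes and a few sex-linked genes. Genes singled out beyond these were chosen after their values were seen. The members and gene lists were chosen with earlier results of these data known. On simulated counts, 100% of 4-fold changes were found in the comparison with the other D32 cells and in the KRT19 and PITX1 splits. False calls numbered 0, 6 and 40. The counts were drawn per group without variation between cells, so false calls from genes held by few cells were not measured. The other comparisons were not simulated. Gene positions came from GENCODE v44, which matched 744 of 745 genes by identifier. A few genes are not reported here.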

Additional observations from a re-analysis of the deposited data

Results flagged for a closer look

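Genes of the lists whose ratio (same-rule cells over the other kept cells of the same library) passed 2-fold in opposite directions in 2 libraries were looked up. These differences were not tested, since each library is 1 sample.

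Between D32 and D23, signalling and surface genes were higher in the D32 members and lower in the D23 cells. For the BMP ligands, the ratio was 23.8 in D32 and 0.305 in D23 for BMP5, and 35.6 and 0.242 for BMP7. The surface glycoproteins CD24 and PDPN had ratios of 35.2 and 24.1 in D32 and of 0.488 and 0.406 in D23. Genes known from neurons behaved alike: DCX, a microtubule protein of young neurons, had 23.3 and 0.0296, STMN2 5.83 and 0.275, GAP43, a growth cone protein, 8.64 and 0.443, and NCAM1, an adhesion molecule, 2.57 and 0.472. The chemokine CXCL12 (0.348 in D32 and 3.46 in D23), the TGF-beta coreceptor ENG (0.224 and 2.87) and the matrix protein SPP1 (0.259 and 2.77) went the other way. The other D23 cells included 743 N-positive cells of 3795 kept, against 111 of 6023 in D32, and the part of this makeup in the ratios was not tested.

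Between D32 and D44, CXCL12 had ratios of 0.348 and 17.7, ENG 0.224 and 2.51, the laminin receptor subunit ITGA6 0.203 and 2.08, and the adhesion molecule L1CAM 0.256 and 2.15. LMNB1, a nuclear lamin of dividing cells, had 2.10 in D32 and 0.424 in D44. The D44 values rest on 19 cells.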

How the results depend on the processing

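Against 238 members, S of at least 10 gave 156 and mitochondrial UMIs under 5% gave 227. Of genes at least 2-fold higher and lower in members (916 and 920), 2931 and 1931 were counted with no minimum level and 357 and 320 with a minimum of 50 CPM, since fewer or more genes were then compared. For the KRT19 split (68 and 70), a limit at the median gave 46 lower genes and a minimum of 50 CPM gave 12 and 8. For the PITX1 split (165 and 142), members with a PITX1 UMI after thinning gave 108 and 69, and a minimum of 50 CPM gave 27 and 21. The cause of the changes with the limit of a split was not tested. The other counts stayed within 1.5 times. Over 528 values of named genes under the alternatives, 0 turned direction and 33 were no longer past 2-fold: 23 of 144 in the KRT19 split, 10 of 144 in the PITX1 split and 0 of 240 against the other D32 cells. The last were 40 genes picked for extreme ratios, so few could fall under 2-fold. Their ratios often left the stated intervals: 32 of 40 after thinning and 25 without called doublets. With 10% of UMIs taken off in the proportions of all kept cells, 38 did, and with median-of-ratios scaling 0 did. No paired analysis was possible because each day has 1 library. Leaving out a replicate was likewise not possible. Depth limits genes near 10 CPM most, and the 19 D44 cells, where 3 UMIs equal 4.68 CPM.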
